A study of Mus musculus with 6 samples.

Results

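The genes described here are 10 genes of bone morphogenetic protein (BMP) signalling: the ligands BMP2, BMP4, BMP6 and BMP7, the secreted BMP antagonist GREM1, the inhibitory SMAD gene SMAD6, and the target genes ID1, ID2, ID3 and ID4. They were taken by symbol from a table of FPKM, a fragment count adjusted for the length of the gene and for the total of mapped fragments. All 10 had a row among the 16191 rows of the table. Per the labels, 3 libraries came from RPE-choroids (retinal pigment epithelium with choroid) of C57BL/6J mice given AAV-PDGF-D and 3 from RPE-choroids of C57BL/6J mice given AAV-GFP, an adeno-associated virus with green fluorescent protein as control. The AAV-PDGF-D vector carries the coding sequence of human PDGF-D, a ligand of the PDGF receptors, and RNA was taken 4 weeks after subretinal injection. Per the methods, the human VMD2 promoter drives the insert in pigment epithelial cells, and both groups had the injection and the vector in common. Whether the 3 libraries under each label stem from separate animals is not said in any source used here, so p-values measure only the spread between these libraries, which may be technical.

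The rows of the table do not match the labelled species. Of the 16191 rows, 15504 carried a human Ensembl ID with a human symbol, 687 were named as new genes of Homo sapiens, and 0 carried a mouse ID, so the libraries are called by their labels throughout and the values are not used to describe mouse tissue. The human PDGFD row, the gene in the vector, was at 5.96 ± 0.627 FPKM in the libraries labelled AAV-PDGF-D and 6.76 ± 0.178 FPKM in those labelled AAV-GFP (SD, n = 3 each). Its log2 fold change was -0.18 (adjusted p = 0.213 from limma), so the gene in the vector was not higher under its own label. The FPKM of a library summed to between 499393 and 518405, no counts came with them, and the read depth is unknown. Of 17 genes listed as pigment epithelium markers, 12 were at 1 FPKM or more in every library. The keratin gene KRT8 was the most abundant of the list at a mean of 1277 FPKM. RPE65 and BEST1, defining genes of the mature epithelium, were at 0.869 and 0.424 FPKM. Of 10 endothelial markers 1 reached 1 FPKM in every library (KDR, 9.06 FPKM) and PECAM1 was at 0.167 FPKM, and of the 6 leukocyte markers with a row none did, with PTPRC at 0.0315 FPKM. Fibroblast and pericyte or smooth muscle markers were present, led by COL1A1 at 140.1 and TAGLN at 1495 FPKM, with 0 of 9 and 0 of 8 called. PDE6B led the photoreceptor markers at 4.48 FPKM.

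BMPs are secreted ligands of the TGF-beta superfamily that bind type I and type II receptor kinases. The activated type I receptor phosphorylates SMAD1, SMAD5 and SMAD9, which join SMAD4 in the nucleus and switch on the ID genes and SMAD6, an inhibitor that feeds back on the pathway. ID proteins lack a DNA-binding region and capture bHLH transcription factors, and in vertebrate embryos BMP signals take part in setting the pigment epithelium apart from the neural retina.

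Of the 10 genes, only BMP6 was called different, and it was lower under the AAV-PDGF-D label. Groups were compared with limma on log2(FPKM + 0.1) over 13821 rows, and a call needed an adjusted p no larger than 0.1, a difference of 1.5-fold or more and a mean of 1 FPKM or more. Among the 9 genes with a mean of at least 1 FPKM, 0 were called higher and 1 lower, where over all 11444 such rows 2.01% were called higher and 1.75% lower. The median log2 fold change of the 9 genes was -0.0070, against 0.037 over all 11444 rows. In bulk RNA, fewer cells of a type and less RNA per cell cannot be told apart.

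BMP6 encodes a BMP ligand best known for the control of hepcidin and iron in the liver. Its level was 15.9, 14.9 and 17.5 FPKM in AAV-PDGF-D replicates 1, 2 and 3, against 27.0, 28.7 and 28.8 FPKM in AAV-GFP replicates 1, 2 and 3. The groups did not overlap, and the highest AAV-PDGF-D library lay well under the lowest AAV-GFP library. BMP6 averaged 16.1 ± 1.28 FPKM in AAV-PDGF-D and 28.2 ± 1.01 FPKM in AAV-GFP (SD, n = 3 each). The log2 fold change was -0.80 (standard error 0.070, 95% interval -0.96 to -0.65, adjusted p = 0.000889 from limma), a level 1.75-fold lower. Of the 11444 rows, 101, or 0.883%, had a lower log2 fold change than BMP6. The exact permutation p over the 6 libraries was 0.1 (two-sided), which is the smallest that 3 against 3 libraries can give.

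Other gene groups differed between the same libraries. Of 9 cell division genes that could be called, 7 were higher in AAV-PDGF-D. The cyclin B1 gene CCNB1 was the most abundant at a mean of 10.1 FPKM, and the summed level of that list of 10 was 43.1 to 48.4 FPKM in AAV-PDGF-D and 25.6 to 26.0 FPKM in AAV-GFP. Of 13 genes listed as pigment epithelium markers that could be called, 2 were lower, the melanosome genes PMEL and TYRP1. The summed level of the 17 listed was 3331 to 3427 FPKM in AAV-PDGF-D and 3166 to 3284 FPKM in AAV-GFP. Most of that sum was KRT8, KRT18 and EZR, at means of 1277, 769 and 719 FPKM. Of the 13, 5 lay wholly lower in AAV-PDGF-D (PMEL, TYRP1, TYR, OTX2 and SERPINF1) and 3 wholly higher (KRT8, EZR and MITF). Of all rows at 1 FPKM or more, 16.4% lay wholly lower and 27.4% wholly higher. Among leukocyte markers CSF1R, the receptor of macrophage colony-stimulating factor, was called lower as the 1 gene of 1 that could be called. The leukocyte list summed to 0.674 to 1.04 FPKM in AAV-PDGF-D and 1.26 to 2.16 FPKM in AAV-GFP. Most of that sum was CSF1R itself, at means of 0.697 FPKM in AAV-PDGF-D and 1.46 FPKM in AAV-GFP, so it is no separate measure of leukocytes. The mean of CSF1R over the 6 libraries, 1.08 FPKM, was near the minimum for a call. Its value with a pseudocount of 1 FPKM is not given here. The pericyte and smooth muscle markers summed to 1805 to 1885 FPKM in AAV-PDGF-D and 1915 to 2091 FPKM in AAV-GFP. Most of that sum was TAGLN and ACTA2, at means of 1495 and 309 FPKM over the 6 libraries. The endothelial markers summed to 9.03 to 10.1 FPKM in AAV-PDGF-D and 11.0 to 11.4 FPKM in AAV-GFP. Most of that sum was KDR, at means of 8.39 FPKM in AAV-PDGF-D and 9.73 FPKM in AAV-GFP. Neither sum is thus a measure of its list as a whole. The part of these groups in the BMP6 result was not tested. None of the markers with a row was at 0 in all 6 libraries. The hemoglobin gene HBA1, whose reads can also come from its near-identical copy HBA2, was at 219 FPKM in AAV-PDGF-D replicate 3 and 168 FPKM in AAV-GFP replicate 1, while the remaining libraries had no more than 0.319 FPKM. Without those 2 libraries the BMP6 log2 fold change was -0.89 (adjusted p = 0.0211 from limma).

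**Figure D1:**
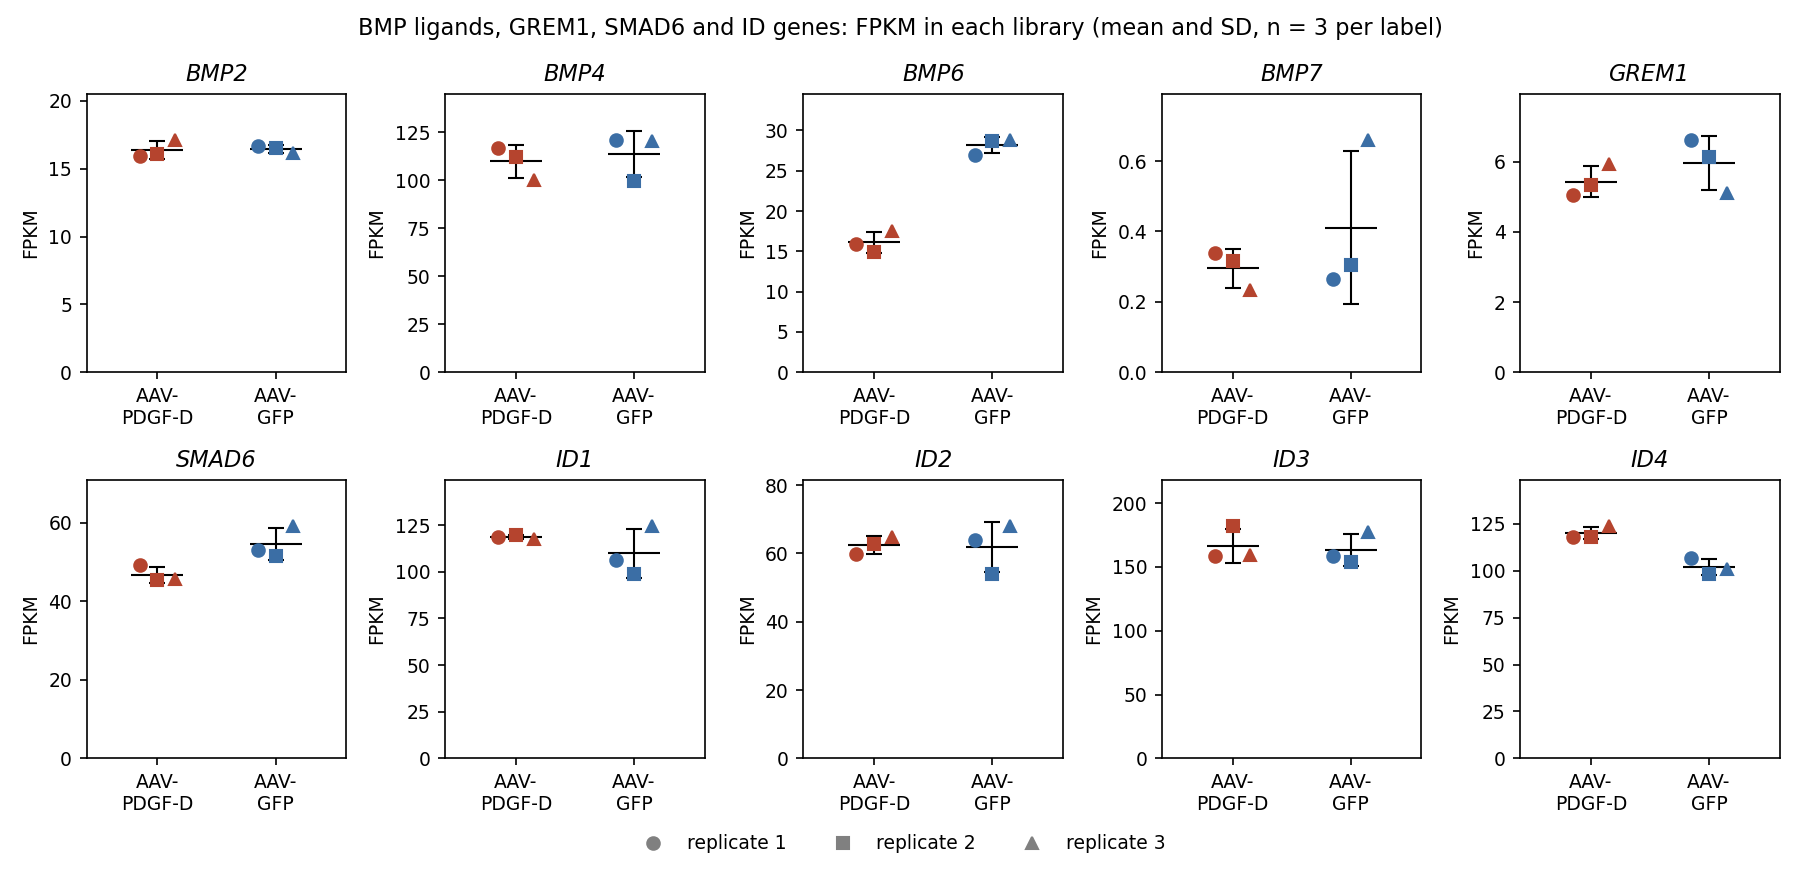
FPKM of each of the 10 genes (vertical axes from 0) in each library, AAV-PDGF-D on the left and AAV-GFP on the right of every panel, with the replicate number as the marker and the mean with its SD as bars (n = 3 per label). BMP6 lay at 14.9 to 17.5 FPKM in AAV-PDGF-D and 27.0 to 28.8 FPKM in AAV-GFP, and besides BMP6 the libraries did not overlap for SMAD6 and ID4 only.

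BMP2 and BMP4 are close relatives that signal through the same receptors. BMP2 was at 15.9, 16.1 and 17.1 FPKM in AAV-PDGF-D replicates 1 to 3, against 16.7, 16.5 and 16.1 FPKM in AAV-GFP replicates 1 to 3. Its groups overlapped, and its coefficient of variation over the 6 libraries, 2.73%, was the lowest of the 10 genes. The BMP2 log2 fold change was -0.0070 (95% interval -0.14 to 0.12, adjusted p = 0.950 from limma), so a change of 1.5-fold lay outside the interval.

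BMP4 was the most abundant ligand, at 117, 112 and 100.3 FPKM in AAV-PDGF-D replicates 1 to 3, against 121, 99.7 and 120.4 FPKM in AAV-GFP replicates 1 to 3. AAV-PDGF-D replicate 3 and AAV-GFP replicate 2 were low in their groups, and the groups overlapped. The BMP4 log2 fold change was -0.047 (95% interval -0.25 to 0.15, adjusted p = 0.747 from limma). BMP7, a ligand needed for eye and kidney development in the mouse, was below the mean of 1 FPKM required for a call, at 0.233 to 0.338 FPKM in AAV-PDGF-D and 0.266 to 0.660 FPKM in AAV-GFP. The highest BMP7 value was that of AAV-GFP replicate 3, and at this level the 95% interval of the log2 fold change ran from -1.07 to 0.48.

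The ligands can also be set against each other within a library, as ratios that a single scaling factor per library leaves unaltered, unlike quantile normalization. The ratio of BMP6 to BMP2 was 0.998, 0.930 and 1.02 in AAV-PDGF-D replicates 1 to 3, against 1.62, 1.74 and 1.78 in AAV-GFP replicates 1 to 3. The ratio of BMP4 to BMP6 was 7.35, 7.51 and 5.74 in AAV-PDGF-D, against 4.48, 3.48 and 4.18 in AAV-GFP. Neither of these ratios overlapped between the groups, and that of BMP4 to BMP2 did, at 7.34, 6.98 and 5.86 in AAV-PDGF-D and 7.25, 6.04 and 7.46 in AAV-GFP. A ratio shows unequal change of the pair and does not say which gene changed.

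**Figure D2:**
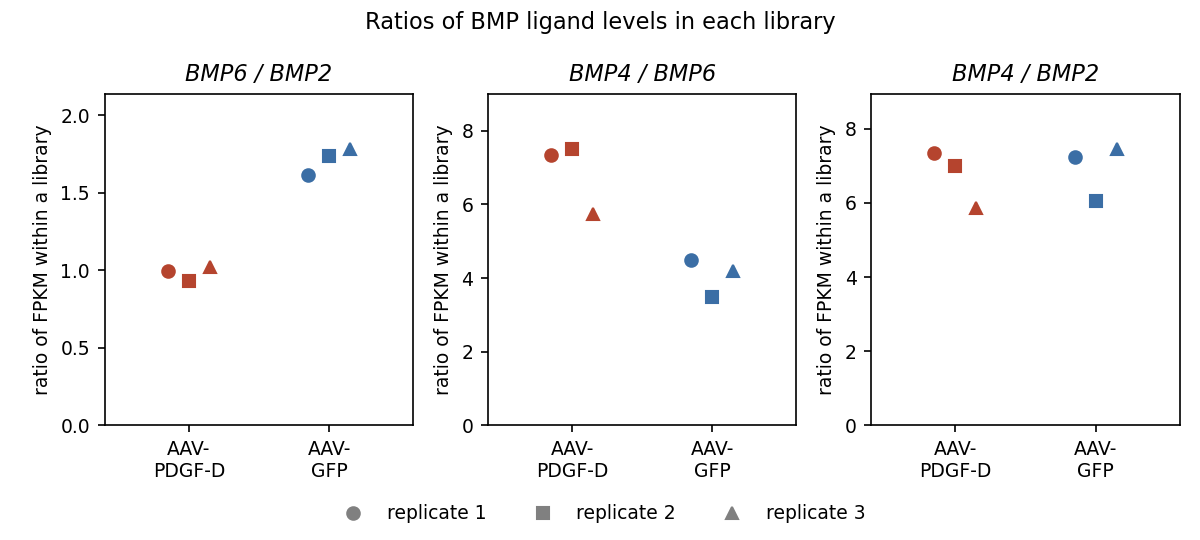
Ratios of FPKM within each library for 3 pairs of BMP ligands (vertical axes from 0, no unit), AAV-PDGF-D on the left and AAV-GFP on the right, 1 point per library. The ratio of BMP6 to BMP2 was 0.930 to 1.02 in AAV-PDGF-D and 1.62 to 1.78 in AAV-GFP, and the ratio of BMP4 to BMP2 overlapped between the groups.

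GREM1 encodes gremlin 1, which binds BMP2 and BMP4 outside the cell and keeps them from their receptors. It was at 5.05, 5.32 and 5.92 FPKM in AAV-PDGF-D replicates 1 to 3, against 6.62, 6.13 and 5.11 FPKM in AAV-GFP replicates 1 to 3. The groups overlapped through AAV-GFP replicate 3, the low library of its group. The GREM1 log2 fold change was -0.13 (95% interval -0.39 to 0.14, adjusted p = 0.488 from limma).

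SMAD6 competes with the receptor-activated SMADs and is itself a direct BMP target. Its level was 49.2, 45.6 and 45.6 FPKM in AAV-PDGF-D replicates 1 to 3, against 53.1, 51.7 and 59.2 FPKM in AAV-GFP replicates 1 to 3. The libraries did not overlap, with a narrow gap between AAV-PDGF-D replicate 1 and AAV-GFP replicate 2. The SMAD6 log2 fold change was -0.22 (standard error 0.063, 95% interval -0.37 to -0.076, adjusted p = 0.0430 from limma), which passed the adjusted p and not the threshold of 1.5-fold. Of all 11444 rows, 65.4% had a smaller absolute log2 fold change than SMAD6. Without both libraries with hemoglobin the adjusted p of SMAD6 was 0.179, at a log2 fold change of -0.22. It was 0.126, 0.119 and 0.112 without AAV-PDGF-D replicate 2, AAV-PDGF-D replicate 3 and AAV-GFP replicate 3, each left out alone, and 0.0418 to 0.0790 without any of the others (limma).

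The ID genes were among the most abundant of the 10, and none was called. ID1, a rapid direct target of BMP signals, was at 119, 119.8 and 118 FPKM in AAV-PDGF-D replicates 1 to 3, against 106, 99.0 and 124 FPKM in AAV-GFP replicates 1 to 3. Its AAV-PDGF-D libraries all lay within the AAV-GFP range, whose SD was 13.1 FPKM against 1.14 FPKM in AAV-PDGF-D. The ID1 log2 fold change was 0.12 (95% interval -0.060 to 0.30, adjusted p = 0.322 from limma), and without AAV-GFP replicate 3, the high library of its group, it was 0.21 (adjusted p = 0.0405 from limma), also under the fold threshold.

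ID2, an ID gene that many cell types express, was at 59.7, 62.7 and 64.8 FPKM in AAV-PDGF-D replicates 1 to 3, against 63.9, 53.9 and 68.0 FPKM in AAV-GFP replicates 1 to 3. ID3, which is regulated much like ID1 in many cells, was at 158, 182 and 159 FPKM in AAV-PDGF-D replicates 1 to 3, against 159, 154 and 178 FPKM in AAV-GFP replicates 1 to 3. The groups overlapped for both genes, with AAV-GFP replicate 2 the low library of its group in each. The log2 fold change was 0.018 for ID2 (95% interval -0.17 to 0.21, adjusted p = 0.908 from limma) and 0.027 for ID3 (95% interval -0.14 to 0.20, adjusted p = 0.831 from limma), and both had the opposite sign under each of the 4 other scalings or normalizations between libraries. For ID1, ID2 and ID3 a change of 1.5-fold in either direction lay outside the interval, while changes that lay inside the interval could not be told from none.

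ID4 was the ID gene whose libraries did not overlap. It was at 118, 118 and 124 FPKM in AAV-PDGF-D replicates 1 to 3, against 107, 98.0 and 101 FPKM in AAV-GFP replicates 1 to 3. The ID4 log2 fold change was 0.24 (standard error 0.047, 95% interval 0.13 to 0.34, adjusted p = 0.0124 from limma), a fold of 1.18 that stayed under the threshold. Of all 11444 rows, 68.1% had a smaller absolute log2 fold change than ID4. With respiratory chain scaling, which sets libraries by 83 genes of the mitochondrial respiratory chain, ID4 was at 0.096 (adjusted p = 0.290 from limma). SMAD6 was at -0.36 with that scaling (adjusted p = 0.00738 from limma), also short of a call. Without both libraries with hemoglobin ID4 was at 0.25 (adjusted p = 0.0661 from limma). Leaving out any single library gave ID4 an adjusted p of 0.0209 to 0.0443 (limma). ID4 and SMAD6, both named as BMP targets, thus had values on opposite sides of 0.

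Taking only whether libraries overlapped, 1 of the 9 genes lay wholly higher in AAV-PDGF-D and 2 wholly lower, where 27.4% of all rows at 1 FPKM or more lay higher and 16.4% lower. With the adjusted p alone and no threshold on the fold, 1 of the 9 was called higher (ID4) and 2 lower (BMP6 and SMAD6), where 20.9% of such rows were called higher and 11.7% lower. Differences of the size of those of ID4 and SMAD6 were thus common in the table.

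**Figure D3:**
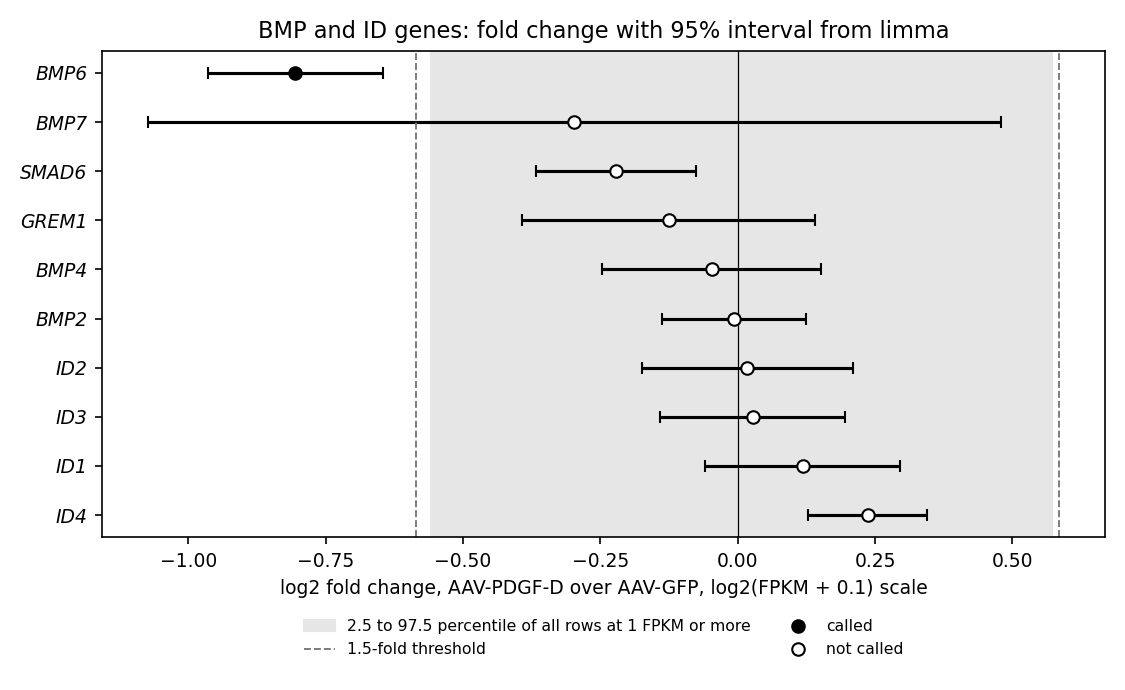
Log2 fold change of AAV-PDGF-D over AAV-GFP on the log2(FPKM + 0.1) scale (horizontal axis) for the 10 genes, with 95% intervals from limma, the 1.5-fold threshold dashed and the central 95% of all rows at 1 FPKM or more shaded. Only BMP6, at -0.80, lay past the threshold, and BMP7, below 1 FPKM, had the widest interval, from -1.07 to 0.48.

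In order of level, which FPKM allows between genes since it is scaled by length, ID3 led with a mean of 165 FPKM over the 6 libraries, above ID1 in 6 of 6 libraries. ID1 (114 FPKM), BMP4 (112 FPKM) and ID4 (111 FPKM) did not differ beyond their spread, with ID1 above BMP4 in 4 of 6 libraries. The order of BMP4 and ID4 followed the labels, with BMP4 above ID4 in 0 of 3 AAV-PDGF-D libraries and in 3 of 3 AAV-GFP libraries. The gap was narrow in AAV-PDGF-D replicate 1 (BMP4 at 117 and ID4 at 118 FPKM) and in AAV-GFP replicate 2 (BMP4 at 99.7 and ID4 at 98.0 FPKM). Then came ID2 (62.2 FPKM), SMAD6 (50.7 FPKM), BMP6 (22.1 FPKM), BMP2 (16.4 FPKM), GREM1 (5.69 FPKM) and BMP7 (0.353 FPKM). ID2 lay above SMAD6 in 6 of 6 libraries although their ranges overlapped, and BMP6 above BMP2 in 1 of 3 AAV-PDGF-D libraries and 3 of 3 AAV-GFP libraries. In level, 97.3% of the rows of the table lay below ID3, and 76.4% below BMP6.

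Within the labels the same libraries stood at the ends for several genes. Some library of each 3 is always at either end for every gene. The share of all rows with a given library at an end was not counted, so the orders below only describe these genes. AAV-GFP replicate 3 was the highest of its group for ID1, ID2, ID3, SMAD6, BMP6 and BMP7 and the lowest for GREM1 and BMP2. AAV-GFP replicate 2 was the lowest of its group for BMP4, SMAD6 and all of the ID genes. Replicate 3 was likewise the highest and replicate 2 the lowest AAV-GFP library for the pigment genes PMEL and TYR. PMEL was at 36.3, 38.0 and 35.8 FPKM in AAV-PDGF-D replicates 1 to 3 and 67.4, 54.7 and 76.7 FPKM in AAV-GFP replicates 1 to 3. TYR was at 27.2, 30.2 and 31.1 FPKM in AAV-PDGF-D and 40.8, 31.8 and 48.8 FPKM in AAV-GFP. SERPINF1, TYRP1 and OTX2 had the same highest and lowest AAV-GFP libraries. Other genes of the pigment epithelium list went the other way. MITF, at 32.6, 33.6 and 32.3 FPKM in AAV-GFP replicates 1 to 3, and KRT8, at 1209, 1225 and 1139 FPKM, were highest in replicate 2 and lowest in replicate 3. EZR and KRT18 were also lowest in AAV-GFP replicate 3. PMEL encodes a melanosome matrix protein and TYR the enzyme tyrosinase. Whether the BMP and ID genes share with PMEL and TYR what sets the AAV-GFP libraries apart was not tested.

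Among 11422 other rows at 1 FPKM or more, the named genes whose log2 levels over the 6 libraries most resembled the mean of the ID genes were IGFBPL1 (Pearson r = 0.985), GTF2E1 (0.980), RBM4 (0.978) and COX6A1 (0.977), besides a new gene row at 0.988. For GREM1 they were RANBP17 (0.991), HIST1H3E (0.990) and ANTXR1 (0.988). With 6 points and so many rows such values describe these libraries only, and the points share the label and the scaling of a library.

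Beyond the 10 genes, 90 further genes of the pathway in 7 lists were looked up, of which 75 had a row and 52 a mean of at least 1 FPKM. Of these 52, 2 were called higher and 2 lower, beside 2.01% and 1.75% of all rows at that level, with a median log2 fold change of -0.016 against 0.037 over all rows. Differences of HEY1, MYOD1, ATOH8 and RGMA made up the 4 calls.

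Of the receptor genes, 0 of 5 that could be called were called in either direction. The type II receptor gene BMPR2 was the most abundant at 19.5 ± 0.771 FPKM in AAV-PDGF-D and 20.6 ± 1.42 FPKM in AAV-GFP, followed by the type I receptor gene ACVR1 at 16.2 ± 0.381 FPKM in AAV-PDGF-D and 15.5 ± 0.141 FPKM in AAV-GFP (SD, n = 3 each). BMPR1A, a type I receptor gene for BMP2 and BMP4, was at 9.06 ± 0.813 FPKM in AAV-PDGF-D and 10.4 ± 0.397 FPKM in AAV-GFP, with a log2 fold change of -0.20 (adjusted p = 0.125 from limma).

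Co-receptors gave 1 call among 6 genes. RGMA, a repulsive guidance molecule that binds BMPs and the receptor neogenin, was at 0.846, 0.952 and 1.06 FPKM in AAV-PDGF-D replicates 1 to 3, against 1.63, 1.72 and 1.52 FPKM in AAV-GFP replicates 1 to 3. The groups did not overlap, and RGMA was called lower, at -0.71 on the log2 scale (standard error 0.16, adjusted p = 0.0169 from limma). NEO1, which encodes neogenin, was at 28.7 ± 0.973 FPKM in AAV-PDGF-D and 36.0 ± 0.935 FPKM in AAV-GFP (SD, n = 3 each), a log2 fold change of -0.33 that was under the 1.5-fold threshold (adjusted p = 0.00502 from limma). The values of RGMB, a relative of RGMA, and of ENG, the co-receptor endoglin, lay on the other side of 0, at 0.37 and 0.48 on the log2 scale, also short of a call (adjusted p = 0.0268 and 0.0181 from limma). BAMBI, a decoy receptor, was at 37.3 ± 1.34 FPKM in AAV-PDGF-D and 37.6 ± 1.84 FPKM in AAV-GFP (SD, n = 3 each).

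Of the other ligand genes, 0 of 4 that could be called were called. GDF15, a stress-induced cytokine whose receptor is not a BMP receptor, was at 83.1, 81.4 and 81.3 FPKM in AAV-PDGF-D replicates 1 to 3, against 52.7, 62.3 and 64.3 FPKM in AAV-GFP replicates 1 to 3. Its groups did not overlap, and its log2 fold change of 0.46 (adjusted p = 0.00575 from limma) was under the threshold. GDF11 and GDF5, ligands with roles in patterning and in joints, had log2 fold changes of 0.20 and 0.28 (adjusted p = 0.158 and 0.222 from limma).

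Antagonists and extracellular modulators gave 0 calls among 10 genes. The most abundant were FSTL1, at 345 ± 10.5 FPKM in AAV-PDGF-D and 329 ± 23.7 FPKM in AAV-GFP, and CRIM1, a membrane protein that tethers BMPs, at 344 ± 11.3 FPKM in AAV-PDGF-D and 374 ± 9.69 FPKM in AAV-GFP (SD, n = 3 each). FSTL3, which binds activins, was at 249.6 ± 11.1 FPKM in AAV-PDGF-D and 310.3 ± 10.8 FPKM in AAV-GFP (SD, n = 3 each), with a log2 fold change of -0.31 (adjusted p = 0.00516 from limma) and no call. NOG, which encodes the BMP antagonist noggin, was at 3.30 ± 0.655 FPKM in AAV-PDGF-D and 3.34 ± 0.144 FPKM in AAV-GFP (SD, n = 3 each).

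Of the SMAD genes and their regulators, 0 of 14 were called. SMAD1 and SMAD5, which carry the BMP signal, had log2 fold changes of -0.17 and 0.15 (adjusted p = 0.223 and 0.101 from limma). SMURF2, a ubiquitin ligase for SMADs and their receptors, was the most abundant with 44.1 ± 2.47 FPKM in AAV-PDGF-D and 36.5 ± 3.08 FPKM in AAV-GFP (SD, n = 3 each), a log2 fold change of 0.27. CTDSP2, a phosphatase that acts on SMAD1, and SKI, a corepressor of SMADs, had log2 fold changes of -0.20 and -0.24.

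Other BMP targets went both ways. HEY1, a transcriptional repressor also induced by Notch, was at 1.93, 1.68 and 1.99 FPKM in AAV-PDGF-D replicates 1 to 3, against 0.882, 1.09 and 1.15 FPKM in AAV-GFP replicates 1 to 3. HEY1 was called higher, at 0.80 on the log2 scale (standard error 0.16, adjusted p = 0.0126 from limma). ATOH8, a bHLH factor induced by BMP signals in liver and endothelial cells, was at 1.92, 1.25 and 1.40 FPKM in AAV-PDGF-D replicates 1 to 3, against 2.68, 2.42 and 2.85 FPKM in AAV-GFP replicates 1 to 3. ATOH8 was called lower, at -0.78 on the log2 scale (standard error 0.17, adjusted p = 0.0177 from limma). Neither pair of groups overlapped, and the other 5 target genes that could be called were not called, among them GATA2 and MSX2 with log2 fold changes of 0.095 and 0.14. The levels of HEY1, ATOH8 and RGMA were near the minimum of 1 FPKM, and all 3 calls were lost with a pseudocount of 1 FPKM, with HEY1 at 0.49, ATOH8 at -0.54 and RGMA at -0.43 on that scale. The HEY1 and ATOH8 calls were also lost without both libraries with hemoglobin, at 0.65 (adjusted p = 0.107 from limma) and -0.72 (adjusted p = 0.132 from limma).

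Among the bHLH factors that ID proteins bind or resemble in target, 1 of 6 was called. MYOD1, the factor that commits cells to skeletal muscle and is held inactive when ID proteins take up its partners, was at 4.61, 4.86 and 4.87 FPKM in AAV-PDGF-D replicates 1 to 3, against 2.89, 2.44 and 2.87 FPKM in AAV-GFP replicates 1 to 3. The groups did not overlap, and MYOD1 was called higher, at 0.79 on the log2 scale (standard error 0.11, 95% interval 0.54 to 1.03, adjusted p = 0.00329 from limma). TCF3, an E protein that ID proteins bind, was at 52.8 ± 4.28 FPKM in AAV-PDGF-D and 56.4 ± 2.42 FPKM in AAV-GFP, and HES1, a Notch-induced repressor, at 25.7 ± 1.37 FPKM in AAV-PDGF-D and 24.0 ± 2.46 FPKM in AAV-GFP (SD, n = 3 each). The log2 fold changes of TCF3 and HES1 were -0.096 and 0.10.

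**Figure D4:**
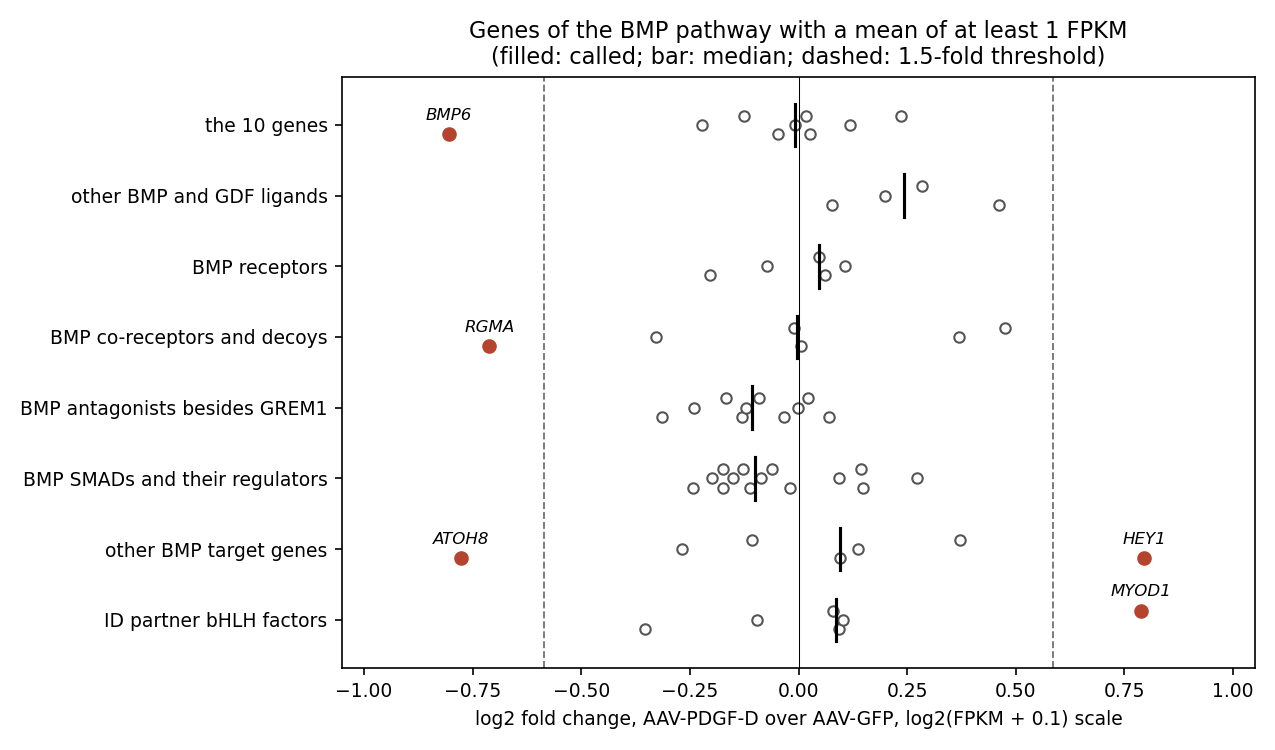
Log2 fold change of AAV-PDGF-D over AAV-GFP on the log2(FPKM + 0.1) scale (horizontal axis) for the 10 genes and 7 pathway lists, 1 point per gene with a mean of at least 1 FPKM, filled and named where called, with the median of each list as a bar and the 1.5-fold threshold dashed. The calls were BMP6, RGMA and ATOH8 on the lower side and HEY1 and MYOD1 on the higher side.

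The BMP6 call was the same in every setting run. The 21 alternatives changed the pseudocount, the filter, the scaling, the variance model, the thresholds or the libraries included. In all of them BMP6 was called lower, with log2 fold changes between -0.94 and -0.75. Dropping the fold threshold or the minimum mean could only loosen the rule for a call. The stricter limit of 0.05 on the adjusted p used the same fit, with BMP6 at 0.000889 from limma. Those alternatives could not have removed the call and are no check on it. Leaving out any single library gave -0.86 to -0.75. Scaling by genes of the respiratory chain moved the median log2 fold change of all rows at 1 FPKM or more by the most, to -0.10 against 0.037. Relative to that median BMP6 was at -0.84 with either scaling, SMAD6 at -0.26, ID4 at 0.20 and ID1 at 0.080 to 0.081, while ID2 and ID3 were at -0.020 to -0.0094. A single factor per library shifts the log2 fold changes of all rows by about the same amount. Values relative to the median were therefore bound to be alike under both scalings, and are no further check on any of these genes.

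**Figure D5:**
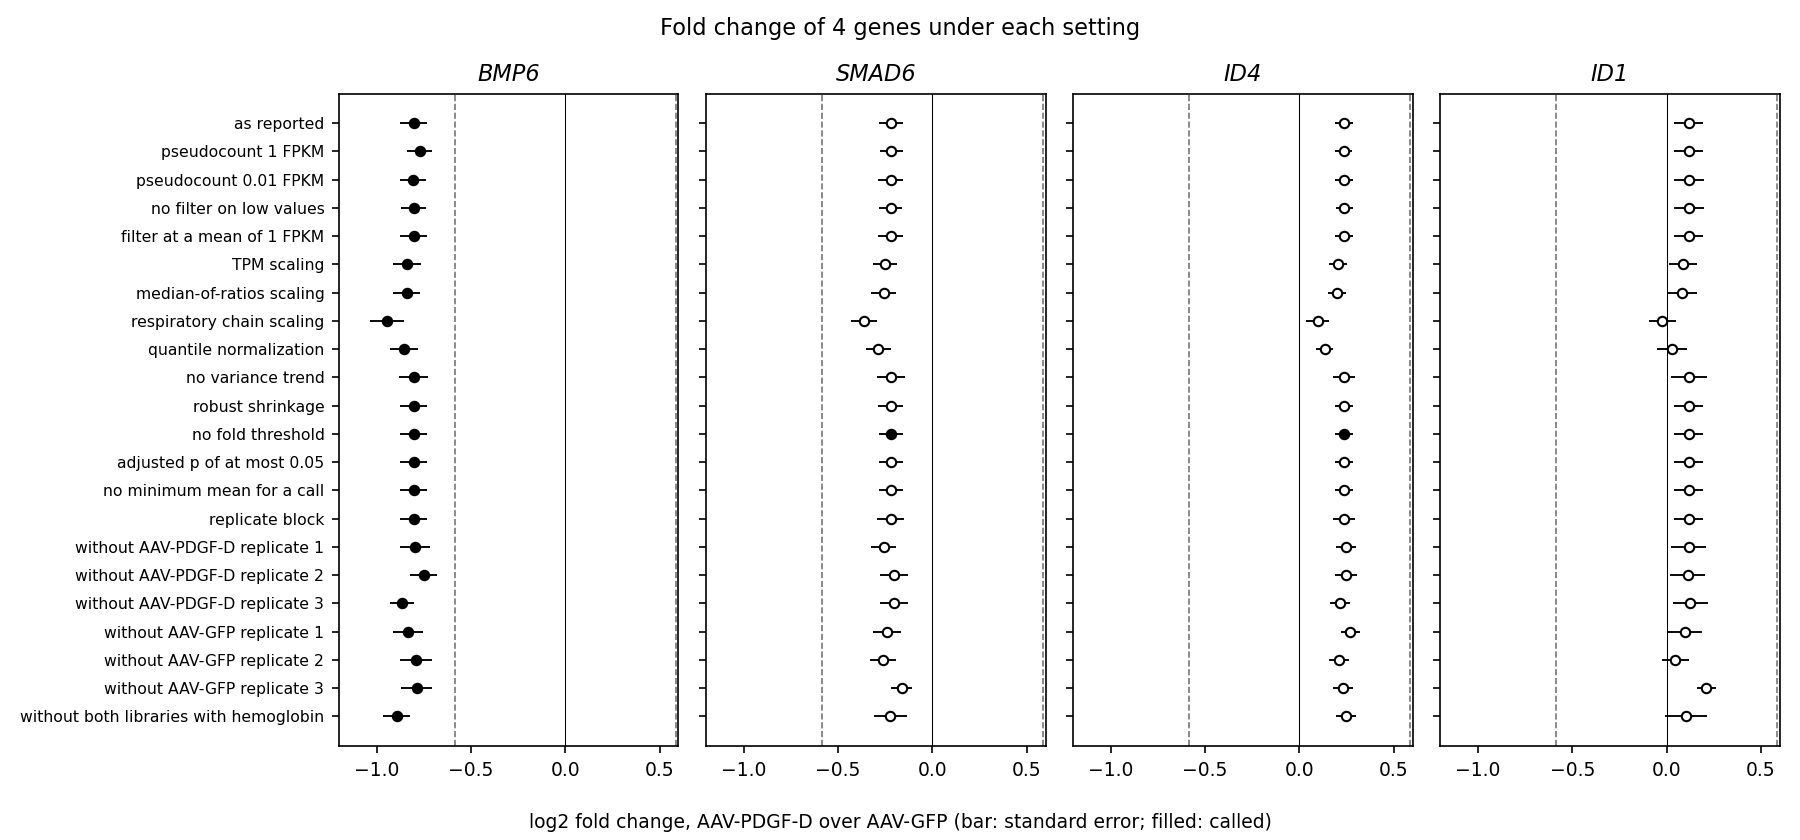
Log2 fold change of AAV-PDGF-D over AAV-GFP (horizontal axes) with its standard error for BMP6, SMAD6, ID4 and ID1 under each setting (rows), filled where called, with the 1.5-fold threshold dashed. BMP6 was called lower in every setting shown, SMAD6 and ID4 only without a fold threshold, and ID1 in none.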

How the data were processed

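RNA-seq libraries were labelled as mouse RPE-choroids. Per the methods and the submitters' processing notes, reads were aligned to mm10 by STAR 2.4.2a and quantified by RSEM 1.2.29, and the authors deposited FPKM per gene and library. Since the rows are human genes, their own build and annotation count as not given in the sources used here. No counts were used, so no count model was run.

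Groups were compared with limma 3.58.1 (variance trend) in R 4.3.3 on log2(FPKM + 0.1), which understates changes of low genes, for the 13821 rows that averaged 0.1 FPKM or more. P-values were adjusted by Benjamini and Hochberg over those rows, and calls used the thresholds of the methods. The fit was tested on simulated data with normal noise on the log2 scale. Recovery was required only of changes larger than the fold threshold for a call, so the test is no check on changes near it. The 10 genes and the lists were chosen with earlier results of these data known. Named pathway genes are the called genes and the 2 most abundant of each list, with the most abundant gene of each marker list and the most alike rows. RGMB, ENG, FSTL3, SKI, BMPR1A, SMAD1, SMAD5, NOG and GDF5 were added after values were seen. So were RPE65, BEST1, PECAM1, PTPRC, PMEL, TYRP1, TYR, OTX2, SERPINF1, MITF, EZR, KRT18, ACTA2 and PDGFD. For 15 of the 90 listed pathway genes no row was found under the listed symbol. Alternatives are listed in the closing section.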

Additional observations from a re-analysis of the deposited data

How the results depend on the processing

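Each of the 21 alternatives changed the pseudocount, the filter, the scaling, the variance model, a threshold or the samples, or added the replicate number as a block. Of the 10 genes, 0 were called higher and 1 (BMP6) lower in all of them but that without a fold threshold, which called 1 higher and 2 lower. In the pathway lists, 2 and 2 genes became 1 and 0 with a pseudocount of 1 FPKM, 1 and 1 without both libraries with hemoglobin, and 6 and 9 without a fold threshold. Over all rows, 230 higher and 200 lower (53.5% of the calls higher) became 148 and 110 with a pseudocount of 1 FPKM, 141 and 441 with respiratory chain scaling (24.2% higher) and 2396 and 1341 without a fold threshold. TPM scaling gave 252 and 323, median-of-ratios scaling 193 and 252 (43.4% higher), and no minimum mean for a call 332 and 321. Leaving out single libraries gave 213 to 271 higher and 140 to 232 lower, and in every case 0 and 1 of the 10 genes and 2 and 2 pathway genes.

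No called gene named in the report turned direction. Uncalled log2 fold changes near 0 changed sign. With respiratory chain scaling ID1 was at -0.022, ID2 at -0.12, ID3 at -0.11, ACVR1 at -0.079, FSTL1 at -0.069, GATA2 at -0.045, MSX2 at -0.0016 and HES1 at -0.038. ID2 and ID3 were at -0.013 and -0.0036 with TPM, -0.020 and -0.010 with median-of-ratios scaling, and -0.064 and -0.028 with quantile normalization, where FSTL1 was at -0.0079. Without both libraries with hemoglobin BMP4 was at 0.064, BAMBI at 0.023 and NOG at 0.022. With single libraries left out, BMP2 ran from -0.039 to 0.012, BMP4 from -0.14 to 0.016, BMP7 from -0.50 to 0.030, ID2 from -0.079 to 0.089, ID3 from -0.039 to 0.090, BAMBI from -0.052 to 0.013 and NOG from -0.19 to 0.045. The causes were not tested.

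With the replicate number as a block, 234 rows were called higher and 199 lower, 0 and 1 of the 10 genes, and 2 and 2 pathway genes, with BMP6 at -0.80. Deviations from the group means correlated at -0.10, 0.014 and -0.072 between libraries of the same number, so the shared numbers are not taken as pairs.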
